A study of Homo sapiens with 2 samples.

Results

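The 10 imprinted growth genes IGF2, H19, DLK1, MEG3, PEG3, PEG10, MEST, PLAGL1, GRB10 and NDN were read on 2 Affymetrix arrays, from among 19775 genes that have at least 1 probe set naming no other gene. They were chosen by name, and every probe set that the platform annotation assigns to one of them was used, 31 in all. Of these, 25 name 1 gene and 6 name a second gene as well. The cells were outgrowths of embryoid bodies, suspended balls of differentiating cells, made from the human embryonic stem cell line HUES9 at passage 32. The SB-OG group was exposed to SB-431542, which blocks the kinase activity of TGF-β, activin and nodal type I receptors, at 10 µM for the 10 days of embryoid body culture and at 1 µM during outgrowth. The control-OG group received the solvent DMSO at 0.01%, and both groups grew on fibronectin in the same chemically defined medium up to outgrowth passage 5. Per group, 3 samples were mixed and read on 1 array, so n = 1, no difference below has a replicate check, and no p-value is given.

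Imprinted genes are transcribed mainly from the copy inherited from 1 parent, because DNA methylation set in the germ line marks that copy. Many of them control the growth of the fetus and the placenta and the switch of progenitor cells between proliferation and differentiation. They often lie in clusters where a protein-coding gene and a non-coding RNA are read from opposite parental copies, as with IGF2 and H19, or DLK1 and MEG3. The arrays measured total RNA of each gene and did not separate the parental copies.

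Values are linear intensities as deposited. An array's background level, 27.0 on SB-OG and 31.8 on control-OG, was taken as the 95th percentile over 219 probe sets of gene families assumed silent in these cells (olfactory and taste receptors and others). Values under it were raised to it before a difference was taken, so where 1 array alone exceeded it the fold is a lower bound, written "at least". Each gene was read by the brightest of its probe sets that name no other gene, by the mean of the log2 values of both arrays. A listed gene with no such probe set was read by the brightest one that it shares. Among probe sets of 1 gene the log2 difference had an SD of 0.47, taken over 4962 genes, the only technical spread within this pair of arrays. Levels of different probe sets were not compared with each other, except that the summed intensities of marker lists add them. These sums include values under background, and the brightest probe sets weigh most in them. Intensities also do not separate fewer cells of a type from less RNA per cell.

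The 10 genes differed in both directions. IGF2, H19 and PEG10 were 6.01-fold to 8.13-fold higher in SB-OG, and NDN and MEST were 3.37-fold and 2.06-fold lower. By the chosen probe set, DLK1, GRB10 and PLAGL1 stayed within 2-fold. PEG3 exceeded background on SB-OG alone, and its bound of at least 1.73-fold higher does not settle whether it passed 2-fold. MEG3 was not above background on either array by its chosen probe set. Thus 3 of 9 members above background were at least 2-fold higher, where 12.4% of all 12582 genes above background were, and 2 of 9 were at least 2-fold lower, where 13.0% of all genes were. The median log2 difference of the 9 genes was 0.79, and that of all genes was -0.02. The members' median is the value of PEG3 and so is itself a lower bound. Without raising values to background it was 0.88. With 9 genes these shares describe the members and say nothing of imprinted genes as a class.

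**Figure D1:**
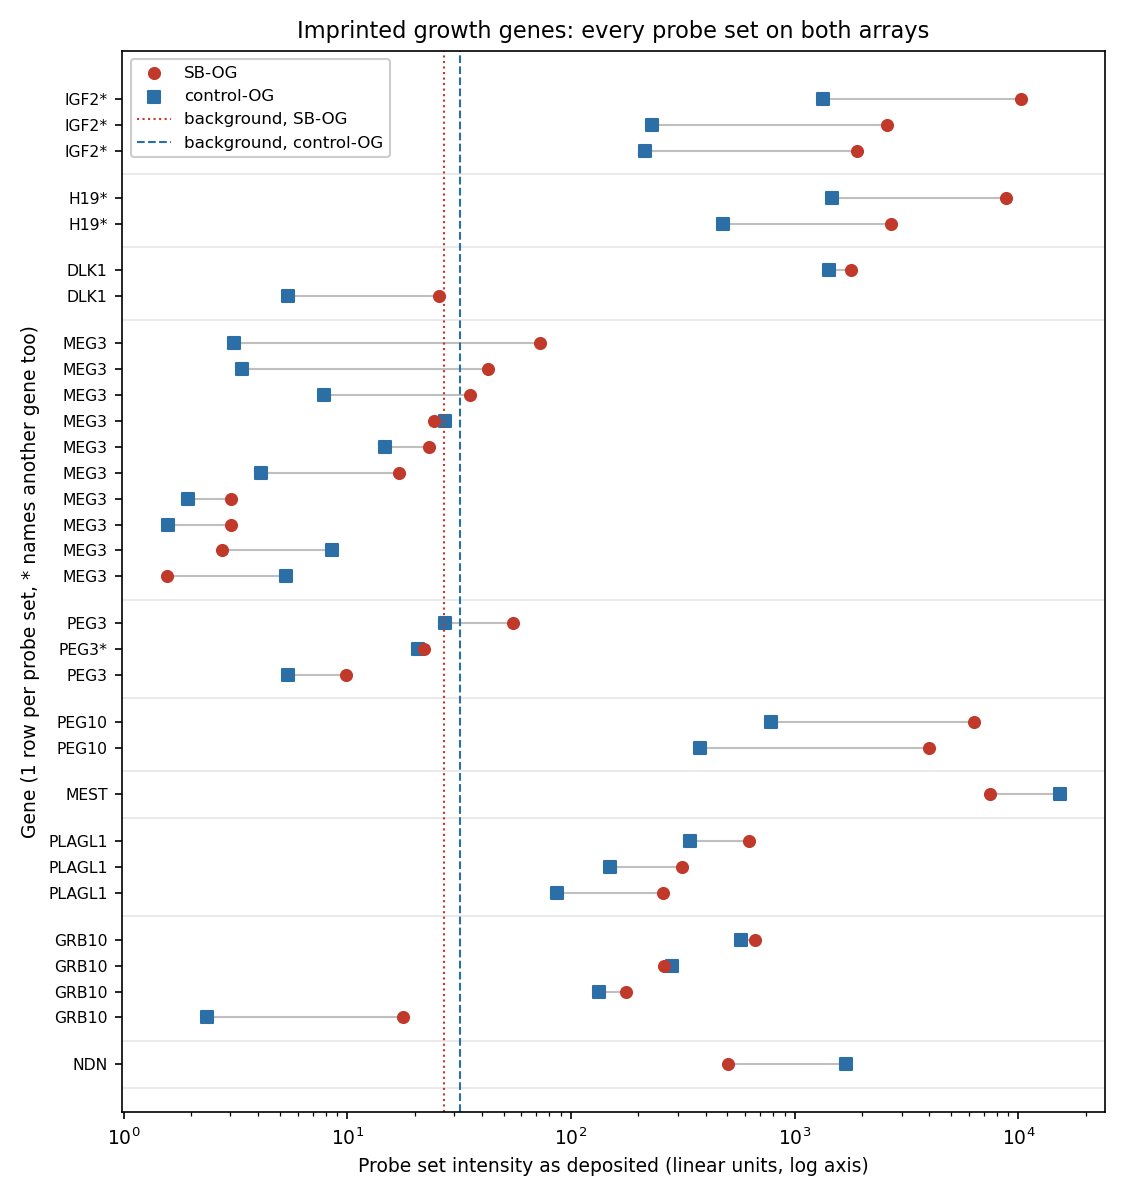
Intensity of each of the 31 probe sets (rows, log axis) on SB-OG (circles) and control-OG (squares), with the background level of each array as a vertical line. All probe sets of IGF2, H19 and PEG10 lie higher on SB-OG, those of MEST and NDN lie lower, and MEG3 and PEG3 lie near or under background.

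Sequences tied to the members were taken from RefSeq tables of build GRCh38.p14, which hold start windows of 300 bases (250 before to 50 after an annotated start) for 6 of the 10 genes, 20 windows in all. The windows of H19 and NDN are shown because these genes have 1 window each and differed in opposite directions. The PLAGL1 window is 1 of its 5, shown because HYMAI, a non-coding RNA of that imprinted locus, has the same window. CpG dinucleotides, the positions that DNA methylation marks, are in capitals. Methylation was not measured.
H19, chr11:2001217-2001516, minus strand: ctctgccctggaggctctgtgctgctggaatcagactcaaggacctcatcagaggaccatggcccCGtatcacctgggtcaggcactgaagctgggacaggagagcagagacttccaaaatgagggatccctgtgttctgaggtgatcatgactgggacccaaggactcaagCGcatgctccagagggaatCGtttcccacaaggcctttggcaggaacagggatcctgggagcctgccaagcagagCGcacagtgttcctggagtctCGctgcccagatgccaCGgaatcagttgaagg
NDN, chr15:23687256-23687555, minus strand: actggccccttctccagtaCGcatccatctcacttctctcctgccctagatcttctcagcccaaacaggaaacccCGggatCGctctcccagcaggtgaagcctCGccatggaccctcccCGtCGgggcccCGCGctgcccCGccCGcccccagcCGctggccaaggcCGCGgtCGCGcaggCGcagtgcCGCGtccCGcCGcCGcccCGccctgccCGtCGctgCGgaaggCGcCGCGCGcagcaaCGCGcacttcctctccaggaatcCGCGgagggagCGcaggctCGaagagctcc
PLAGL1 and HYMAI, chr6:144008210-144008509, minus strand: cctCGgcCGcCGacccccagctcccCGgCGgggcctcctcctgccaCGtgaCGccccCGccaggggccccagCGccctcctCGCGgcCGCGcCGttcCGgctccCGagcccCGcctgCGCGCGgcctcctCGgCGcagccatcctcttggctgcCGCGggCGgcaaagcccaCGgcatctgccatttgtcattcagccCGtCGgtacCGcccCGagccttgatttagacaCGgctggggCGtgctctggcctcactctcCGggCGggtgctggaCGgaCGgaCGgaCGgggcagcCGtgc
The H19 window holds 6 CpG, the NDN window 35 and the PLAGL1 window 39, against a median of 14 over all 35116 windows in the table. At least as many are held by 66.3% of all windows for H19, 14.1% for NDN and 8.71% for PLAGL1. The motif CAGCTG, an E-box that reads the same on both strands and is preferred by myogenic factors, was in 1 of the 20 member windows, one of MEST, and in 17.9% of all windows.

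Both H19 and MEST also carry a microRNA inside the transcribed span, and the annotation names MIR675 beside H19 for both H19 probe sets. The mature forms are given with the seed, bases 2 to 8, in capitals. The arrays held no separate measurement of the mature microRNAs that was used here.
hsa-miR-675-5p, within H19, chr11:1996800-1996822, minus strand: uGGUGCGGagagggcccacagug
hsa-miR-675-3p, within H19, chr11:1996768-1996787, minus strand: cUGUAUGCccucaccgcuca
hsa-miR-335-5p, within MEST, chr7:130496126-130496148, plus strand: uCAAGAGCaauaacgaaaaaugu
hsa-miR-335-3p, within MEST, chr7:130496162-130496183, plus strand: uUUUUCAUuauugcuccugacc
No seed is shared among these 4.

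IGF2 encodes insulin-like growth factor 2, a secreted growth factor of the fetus that also acts on myoblasts. Its brightest probe set read 10231 on SB-OG and 1337 on control-OG, a 7.65-fold difference. A second probe set read 2584 on SB-OG and 230.5 on control-OG, 11.2-fold higher, and the last read 1901 on SB-OG and 215 on control-OG, 8.85-fold higher. The 3 probe sets thus went the same way, at log2 differences of 2.94 to 3.49. Each of them names INS-IGF2 as well, a readthrough transcript from the insulin gene into IGF2, and the signals of the 2 transcripts cannot be told apart.

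H19, the maternally expressed non-coding RNA downstream of IGF2, was higher in SB-OG by both of its probe sets. One read 8832 on SB-OG and 1469 on control-OG, 6.01-fold higher, and the other 2680 on SB-OG and 476 on control-OG, 5.63-fold higher. Both are of the array's _x type, whose probes may also bind other transcripts. The 2 genes of this locus on chromosome 11, which are read from opposite parental copies, were therefore higher together. Another imprinted gene of the same chromosome region, CDKN1C, which encodes the cyclin-dependent kinase inhibitor p57 and is read from the maternal copy, had 5679 on SB-OG and 830 on control-OG, 6.84-fold higher, with further probe sets above background at log2 differences of 3.13 to 3.49.

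PEG10, a paternally expressed gene derived from a retrotransposon and needed for placenta formation in the mouse, had the largest difference of the 10 by the chosen probe sets as deposited, at 3.02 on the log2 scale against 2.94 for IGF2. After quantile normalization IGF2 was at 3.14 and PEG10 at 3.12. Its probe sets read 6353 on SB-OG and 781 on control-OG, 8.13-fold higher, and 3978 on SB-OG and 377 on control-OG, 10.6-fold higher. Of all genes, 2.05% had a larger positive difference than PEG10, 2.21% than IGF2 and 2.76% than H19. SGCE, the sarcoglycan epsilon gene that lies head to head with PEG10 and is also paternally expressed, read 1072 on SB-OG and 838 on control-OG, a log2 difference of 0.36. The log2 differences of these neighbours on the same arrays were thus 3.02 for PEG10 and 0.36 for SGCE.

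**Figure D2:**
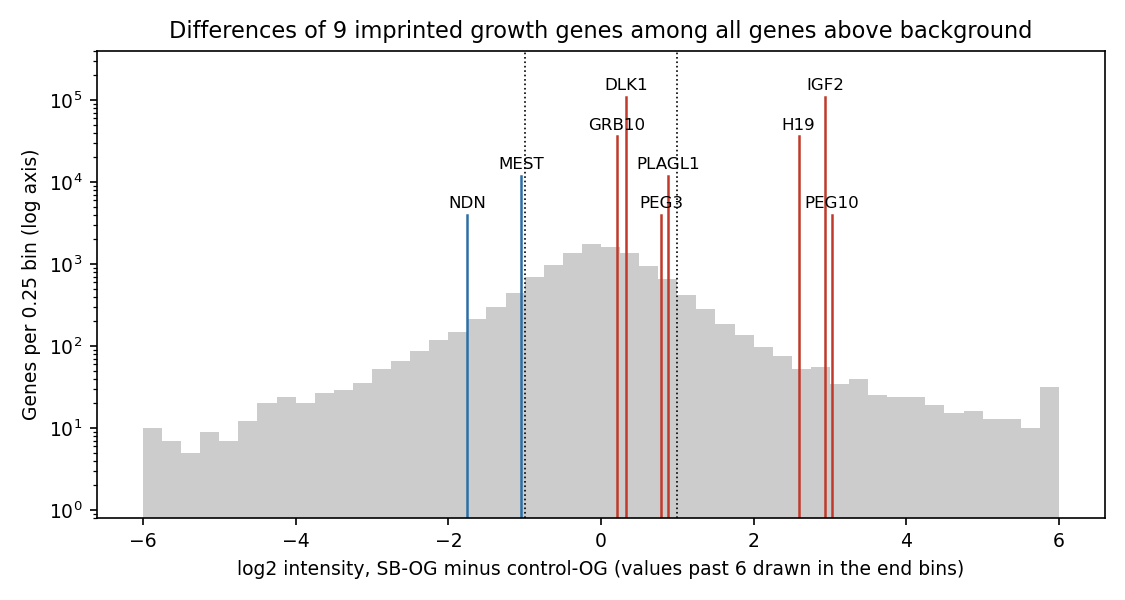
Histogram of log2 differences (SB-OG minus control-OG) for all 12582 genes above background on at least 1 array (log axis), with vertical lines at the 9 members above background and dotted lines at 2-fold. PEG10, IGF2 and H19 stand in the upper tail, and NDN and MEST lie below the lower dotted line.

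NDN encodes necdin, a MAGE family protein that restrains cell division in neurons and is paternally expressed from the Prader-Willi region of chromosome 15. Its single probe set read 502 on SB-OG and 1689 on control-OG, 3.37-fold lower. Of all genes, 5.36% had a more negative difference. MAGEL2, the neighbouring MAGE family gene, read 20.4 on SB-OG, under background, and 187 on control-OG, at least 6.92-fold lower. SNRPN and SNURF of the same region, encoded on 1 transcript for a splicing protein and a small peptide, share a probe set that read 3525 on SB-OG and 2866 on control-OG, a log2 difference of 0.30, and the probe set of SNRPN alone was under background on both arrays. Among probe sets that name SNRPN together with IPW and small nucleolar RNA genes, one read 647 on SB-OG and 286 on control-OG, a log2 difference of 1.18, and one 871 on SB-OG and 456 on control-OG, a log2 difference of 0.94.

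MEST, a paternally expressed gene for a predicted hydrolase of mesodermal tissue, read 7441 on SB-OG and 15346 on control-OG with its single probe set. The 2.06-fold lower value is just past the 2-fold limit, and the log2 difference of -1.04 was -0.80 after lowess correction, -0.73 after quantile normalization and -0.55 after scaling on hybridisation controls. COPG2, which overlaps the end of MEST, read 91.3 on SB-OG and 279 on control-OG, a log2 difference of -1.61.

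PLAGL1 encodes a zinc finger transcription factor that activates other imprinted genes, IGF2 and H19 among them, in the mouse. Its brightest probe set read 623 on SB-OG and 339 on control-OG, 1.83-fold higher. The others read 313 on SB-OG and 149 on control-OG, 2.101-fold higher, and 258 on SB-OG and 86.9 on control-OG, 2.97-fold higher. All 3 thus lay higher on SB-OG, and whether PLAGL1 passes 2-fold depends on the probe set: their mean log2 difference was 1.17, against 0.88 for the brightest. HYMAI was under background on both arrays, at 13.2 on SB-OG and 27.04 on control-OG.

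DLK1, a membrane protein of the Delta/Notch family that keeps preadipocytes undifferentiated, is an abundant fetal product of stromal and muscle progenitors. It read 1791 on SB-OG and 1426 on control-OG, a 1.26-fold difference, smaller than the SD of 0.47 between probe sets. Its second probe set was under background on both arrays. MEG3, the maternally expressed non-coding RNA of the same cluster, had 10 probe sets, none of which exceeded the control-OG background. In SB-OG 3 of the 10 exceeded it, at 72.5, 42.7 and 35.3, where control-OG had 3.12, 3.37 and 7.84. These give bounds of at least 2.28-fold, 1.34-fold and 1.11-fold higher. The brightest by mean over both arrays, which the rule takes, read 24.5 on SB-OG and 27.3 on control-OG. The MEG3 probe sets therefore disagree on whether the transcript was detected in SB-OG. DIO3, at the far end of the cluster, read 37.4 on SB-OG and 6.31 on control-OG, and RTL1 had no probe set in the annotation used here.

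GRB10, an adaptor protein that dampens signalling from the insulin and IGF receptors, is imprinted in a tissue-dependent way. Of its 4 probe sets 3 were above background. The brightest read 663 on SB-OG and 573 on control-OG. One read higher in SB-OG too, at 177 on SB-OG against 134 on control-OG, and the last lower, at 260 on SB-OG against 284 on control-OG. The log2 differences ran from -0.13 to 0.40, all within the SD between probe sets. PEG3, a zinc finger gene linked to growth and maternal behaviour in the mouse, was near background, at 55.04 on SB-OG and 27.3 on control-OG, at least 1.73-fold higher. The probe set that it shares with ZIM2 read 21.9 on SB-OG and 20.8 on control-OG, under background on both.

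By textbook parental origin, 7 of the members are paternally expressed, with 2 past 2-fold upward and 2 past 2-fold downward. Over all genes, 12.4% were past 2-fold upward and 13.0% downward. The other 3 were not called at 2-fold, PEG3 among them by a lower bound only. Of the 2 maternally expressed RNAs, H19 was higher and MEG3 was under background by its chosen probe set.

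Markers of cell types differed along with these results, and their part in them was not tested. For the counts below, the shares over all genes above background were 12.4% at least 2-fold higher and 13.0% at least 2-fold lower. After scaling on hybridisation controls these shares were 24.8% and 7.12%. Of 13 skeletal muscle markers on the array, all 13 were above background on SB-OG and 6 on control-OG, and 12 had SB-OG values past 2-fold upward, among them MYH8, a fetal myosin heavy chain gene, at least 263-fold. Their summed intensity was 62352 on SB-OG and 487 on control-OG. Of 12 fibroblast and stromal markers, 8 were at least 2-fold lower (3 after scaling on hybridisation controls) and 2 at least 2-fold higher. FAP was 51.2-fold, THY1 14.6-fold and LUM 3.86-fold lower, and S100A4 was 5.57-fold and PDGFRB 2.07-fold higher. A further LUM probe set read 128 on SB-OG and 4647 on control-OG, a log2 difference of -5.185. The list had summed intensities of 55930 on SB-OG and 112150 on control-OG. Sources in which IGF2, H19, DLK1 or PEG10 are abundant in the fetus were checked as well. Of 11 endoderm and liver markers, 1 was above background on SB-OG and 4 on control-OG, with sums of 149.96 on SB-OG and 849 on control-OG. None was at least 2-fold higher and 2 were at least 2-fold lower, APOA1 2.25-fold and GATA6, a transcription factor gene of endoderm and heart, at least 22.3-fold, at 16.9 on SB-OG and 602 on control-OG. ALB and TTR were under background on both arrays. Of 12 trophoblast markers, 4 were above background on SB-OG and 5 on control-OG, with sums of 541 on SB-OG and 907 on control-OG. HSD3B1, a steroid dehydrogenase gene of the placenta, read 1.37 on SB-OG and 515 on control-OG, at least 19.1-fold lower. TFAP2A, a transcription factor gene, read 319.7 on SB-OG and 127 on control-OG, 2.51-fold higher. Another TFAP2A probe set read 49.8 on SB-OG and 44.6 on control-OG, a log2 difference of 0.16. With the mean of all probe sets no trophoblast marker was at least 2-fold higher. The remaining 3 detected markers of this list were within 2-fold, and CGA, CGB3, PSG3 and GCM1 were under background on both arrays. Among 12 neuronal markers, 8 were above background on at least 1 array, with 5 at least 2-fold higher and 1 lower. DCX was 42.8-fold, NEFM 38.3-fold, MAP2 at least 17.9-fold, NEFL at least 14.7-fold and SYT1 2.26-fold higher. A further MAP2 probe set read 59.4 on SB-OG and 18.0 on control-OG, a log2 difference of at least 0.90. STMN2 was at least 96.5-fold lower. The sums were 11988 on SB-OG and 7116 on control-OG, of which TUBB3, within 2-fold, gave 6918 on SB-OG and 4141 on control-OG. Adipocyte markers summed to 145 on SB-OG and 109.01 on control-OG, and 2 of 8 were above background on at least 1 array. Of 9 pluripotent cell markers, SOX2 by its chosen probe set was above background on SB-OG alone, at 147 on SB-OG and 14.2 on control-OG. This was at least 4.62-fold higher. Another SOX2 probe set was above background on both arrays, at 33.3 on SB-OG and 35.0 on control-OG. Its log2 difference was -0.07, so the SOX2 probe sets disagree. SALL4 was above background on control-OG alone, at 1.26 on SB-OG and 44.4 on control-OG. NANOG and POU5F1 were under background on both, and the list had sums of 242 on SB-OG and 156 on control-OG.

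Of 46 further imprinted genes 42 were on the array and 28 above background, 6 past 2-fold upward in SB-OG and 6 past 2-fold downward, with a median log2 difference of 0.06. The shares over all genes were 12.4% upward and 13.0% downward. The largest differences, by the rule for named genes, were those of NNAT, CDKN1C and RB1 upward and MAGEL2, TFPI2 and ATP10A downward. NNAT, which encodes the membrane proteolipid neuronatin and is paternally expressed, read 1287 on SB-OG and 72.02 on control-OG, 17.9-fold higher. RB1, the retinoblastoma tumour suppressor, read 1143 on SB-OG and 353 on control-OG, 3.24-fold higher. TFPI2, a protease inhibitor of the matrix and placenta, read 0.91 on SB-OG and 124 on control-OG, at least 4.57-fold lower, and ATP10A, a phospholipid flippase gene, read 26.2 on SB-OG and 114 on control-OG, at least 4.21-fold lower. DDC, next to GRB10, was under background on both arrays.

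Of 19 IGF axis genes, through which IGF2 acts, 18 were above background, with 4 past 2-fold upward and 5 past 2-fold downward in SB-OG, where 12.4% of all genes lay upward and 13.0% downward. After scaling on hybridisation controls the counts were 4 upward, where 24.8% of all genes were, and 3 downward, where 7.12% were. The receptor gene for both IGFs, IGF1R, read 287 on SB-OG and 296 on control-OG. IGF2R, the receptor that removes IGF2 for degradation, read 1477 on SB-OG and 683 on control-OG, 2.16-fold higher. IRS1, the docking protein of the receptor, had 1031 on SB-OG and 223 on control-OG, 4.63-fold higher, and INSR, the insulin receptor gene, 30.0 on SB-OG and 65.5 on control-OG, 2.18-fold lower. Another INSR probe set had a log2 difference of -1.07, and a further one was within 2-fold, at 38.5 on SB-OG and 47.6 on control-OG. Of the detected binding proteins that hold IGFs outside the cell, IGFBP2 alone was higher in SB-OG as deposited. IGFBP4 read 721 on SB-OG and 1495 on control-OG, 2.07-fold lower. IGFBP5 was 1.89-fold lower, and IGFBP7 had a log2 difference of -0.17, smaller in size than the 0.49 that scaling on hybridisation controls adds. IGFBP2 read 2197 on SB-OG and 515 on control-OG, 4.26-fold higher, IGFBP3 read 5006 on SB-OG and 17435 on control-OG, 3.48-fold lower, and IGFBP6, which prefers IGF2, read 19.1 on SB-OG and 103 on control-OG, at least 3.83-fold lower. A further IGFBP3 probe set read 1477 on SB-OG and 10073 on control-OG, a log2 difference of -2.77. The protease gene PAPPA2, which cleaves IGF binding proteins, read 20.4 on SB-OG and 123 on control-OG, at least 4.54-fold lower, while another of its probe sets read 27.5 on SB-OG and 41.8 on control-OG, a log2 difference of -0.61. IGF2BP3, an RNA-binding protein named for its binding to IGF2 mRNA, read 1445 on SB-OG and 680 on control-OG, 2.12-fold higher. IGF2 was thus higher together with IGF2R, while IGF1R differed by -0.04 on the log2 scale.

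**Figure D3:**
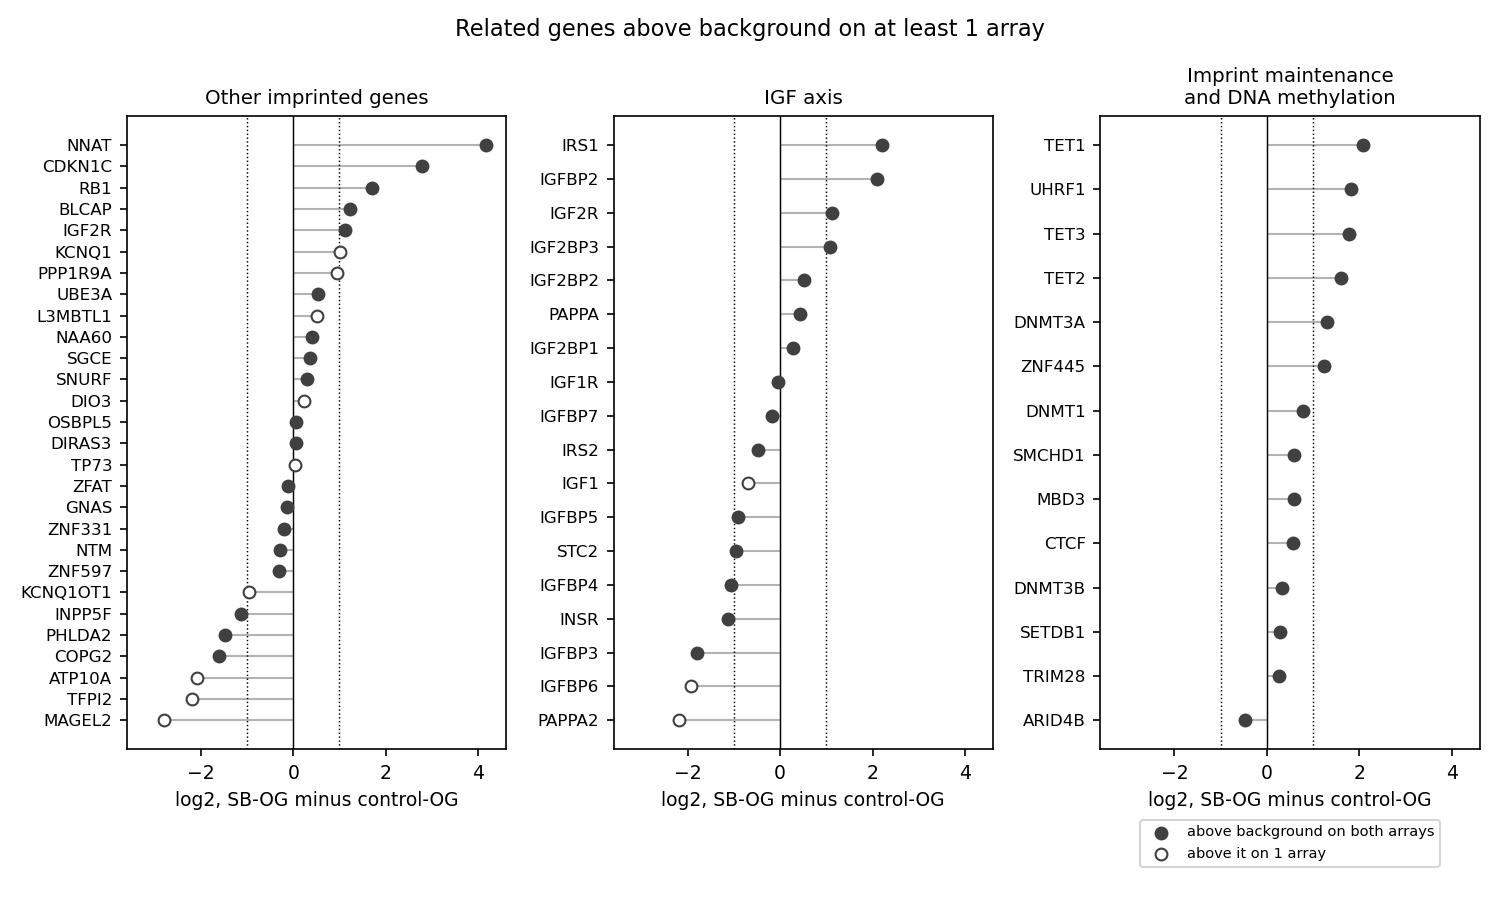
Log2 differences (SB-OG minus control-OG) of genes above background in 3 related lists. Filled points were above background on both arrays, open points on 1 only (lower bounds in size), and dotted lines mark 2-fold. Other imprinted genes and the IGF axis lie on both sides of 0, and 13 of 14 imprint maintenance and DNA methylation genes lie above it.

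How far the member values rest on processing differed by gene. Over 12 alternative settings, IGF2, H19, PEG10 and NDN kept their 2-fold call and DLK1 and GRB10 stayed within 2-fold wherever they had a value. MEST, PLAGL1, PEG3 and MEG3 changed sides in at least 1 setting. Scaling on the 11 hybridisation control probe sets, RNAs added in known amounts at hybridisation, added 0.49 to every log2 difference. At this scaling 24.8% of all genes were at least 2-fold higher and 7.12% at least 2-fold lower, and 5 members were higher and 1 was lower. It raised the share of SB-OG-higher genes among all 2-fold calls to 77.7%, against 48.9% as deposited. Quantile normalization left 11.5% of all genes higher and 14.1% lower, and lowess correction 12.0% higher and 13.3% lower, each with 1 member lower. At 3-fold, 6.32% of all genes were higher and 6.39% lower, and 3 members were higher and 1 was lower.

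**Figure D4:**
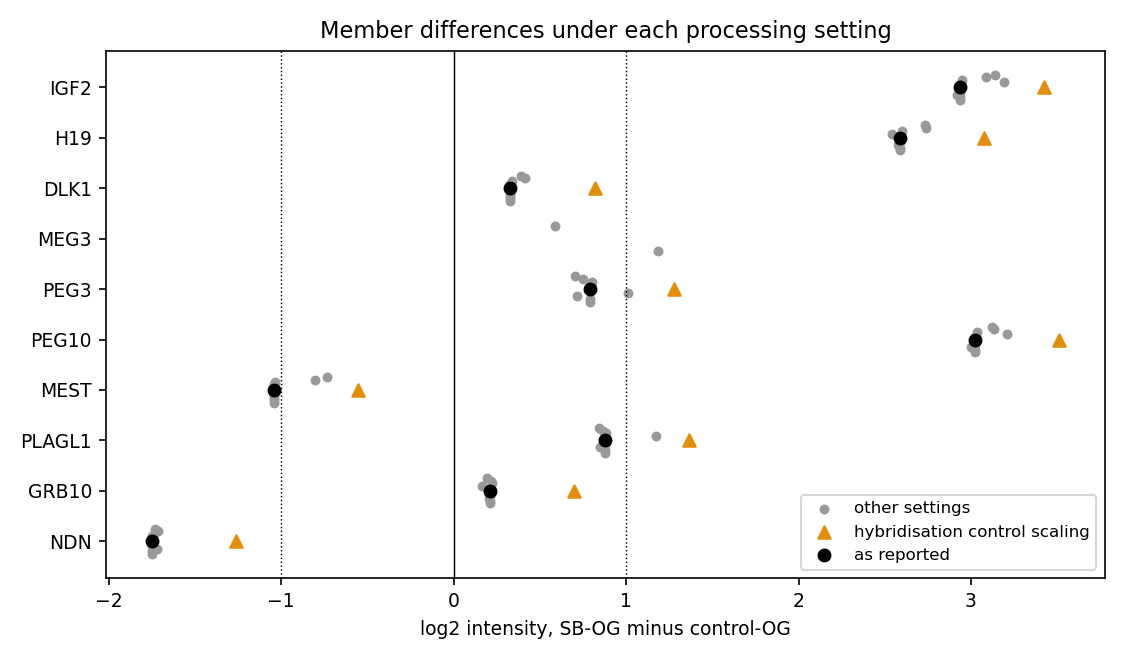
Log2 difference (SB-OG minus control-OG) of each member as reported (black), after scaling on hybridisation controls (triangles) and in the other settings (grey), with dotted lines at 2-fold. No member changes sign, MEST crosses the lower dotted line, PLAGL1 and PEG3 cross the upper one, and MEG3 has a value in 2 settings only.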

How the data were processed

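RNA was purified with a column kit and biotin-labelled by in vitro transcription, per the labels' protocols, and the 3 samples of a group were mixed, per the series' design text. The deposited values are linear intensity values of 54675 probe sets per array. The sources used here do not name the software that summarised them. Without the lowest and highest 2%, the mean was 150.02 on both arrays, which hides any shift in total RNA per cell. The log2 medians differed by -0.05, under the limit of 0.1 for centring. The 2016 platform annotation, with symbols updated through GRCh38.p14, gave 41091 probe sets with 1 gene, 1801 with several, 11721 with none and 62 controls. IGF2 and H19 had no probe set of their own and took the brightest one they share. Log2 differences are SB-OG minus control-OG. With 1 array per group no test was made, and the number of arrays limits the precision. Named genes were all members, genes beside them in their clusters, and up to 4 genes per list (6 for other imprinted and IGF axis genes) at least 2-fold apart. IGF1R, IGF2R, IGF2BP3, IGFBP4, IGFBP5, IGFBP7, ZNF445, DNMT1, DNMT3A, DNMT3B, TRIM28, CTCF, PDGFRB, NEFL, SYT1, TUBB3 and SALL4 were named after their values were seen. The same holds for COBL, PWAR6, CEP41 and the other nearest neighbours, and for markers under background. Members and lists were chosen with earlier results of these data known. The gene table was tested on simulated data. The tools were matplotlib 3.10.9, statsmodels 0.14.6, scipy 1.17.1, pandas 2.3.3 and numpy 2.4.6 under Python 3.11.15.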

Additional observations from a re-analysis of the deposited data

How the results depend on the processing

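The alternatives were quantile normalization, lowess with a span of 0.4, centring, hybridisation control scaling, a threshold of 3-fold, a pseudocount of 16, the 99th percentile as background, leaving out the floor, shared probe sets, probe sets named without _a, _s or _x alone, averaging a gene's probe sets and, added after seeing the data, the probe set brightest on either array. Of 106 member values over these, none changed sign against a 2-fold call. With hybridisation control scaling 5 members were at least 2-fold higher, where 24.8% of all genes were, and 1 was lower, where 7.12% of all genes were, and the members' median was 1.28. That median was again the lower bound of PEG3. Members at least 2-fold lower numbered 1 after quantile normalization and 1 after lowess, and 1 member was lower at 3-fold, NDN in each case. At 3-fold, 3 other imprinted genes were higher, where 6.32% of all genes were, and 4 lower, where 6.39% were. The median of the 18 IGF axis genes was -0.32, and 0.17 with hybridisation control scaling. MEG3 had a value with the mean of all probe sets (0.59) and with the probe set brightest on either array (1.19). H19, PLAGL1 and DLK1 had no probe set above background that was specific by name. No paired analysis was possible because each group has 1 array. Low signal limits PEG3 and MEG3.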

Other observations

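Of 19 genes that copy, remove or guard DNA methylation or maintain imprints, 14 exceeded background on at least 1 array, with 6 past 2-fold upward, where 12.4% of all genes were, none past 2-fold downward, where 13.0% were, and 8 within 2-fold. TET1, an enzyme that oxidises methylated cytosine, read 200.1 on SB-OG and 47.7 on control-OG, 4.20-fold higher. Another TET1 probe set had a log2 difference of at least 3.09. TET3 had 361 on SB-OG and 106 on control-OG, 3.42-fold higher, and TET2 292 on SB-OG and 96.04 on control-OG, 3.04-fold higher. Other probe sets had log2 differences of at least 0.97 for TET3 and of 0.39 for TET2. UHRF1, which brings the maintenance methyltransferase to replicating DNA, read 1029 on SB-OG and 292 on control-OG, 3.53-fold higher. DNMT1, that methyltransferase, read 667 on SB-OG and 390.1 on control-OG, within 2-fold, and the de novo enzyme gene DNMT3A read 592 on SB-OG and 240 on control-OG, 2.47-fold higher. ZNF445, a zinc finger protein that protects imprints, read 166 on SB-OG and 70.5 on control-OG, 2.35-fold higher, while ZFP57, the other such protein, was under background on both arrays. TRIM28, DNMT3B and CTCF, the insulator protein that separates IGF2 from its enhancers on the maternal copy, lay between 0.26 and 0.56 on the log2 scale. The count upward was 4 of 14 with the mean of all probe sets, where 11.3% of all genes were, and 10 of 14 with hybridisation control scaling, where 24.8% were.

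Of 15 relatives and partners of the members, 12 were above background, and 1, NOTCH3, a receptor of the pathway that DLK1 modulates, was at least 2-fold higher, at 1600.5 on SB-OG and 122 on control-OG, 13.2-fold. None was at least 2-fold lower. Over all genes 12.4% were higher and 13.0% lower, so a count of 1 of 12 is near the share of all genes.

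The nearest measured genes on either side of each member were read as well. Measured here means above background by a chosen probe set that names no other gene, and other members were passed over. CEP41 and COPG2, on both sides of MEST, were at log2 differences of -1.08 and -1.61, close to or past that of MEST at -1.04. PWAR6, the next gene after NDN by this rule, went the other way, at 363 on SB-OG and 81.6 on control-OG, a log2 difference of 2.15. The rule left out SNRPN and SNURF of the same region, whose shared probe set had a log2 difference of 0.30. IGF2-AS, the antisense gene of IGF2, read 60.95 on SB-OG and 4.797 on control-OG, a log2 difference of at least 0.94. COBL, after GRB10, read 87.6 on SB-OG and 3.31 on control-OG, at least 1.46 on the log2 scale. Of the remaining neighbours, MRPL23, BEGAIN, ZNF264, SF3B5 and FIGNL1 lay within 2-fold, at log2 differences of -0.42 to 0.53. DIO3OS, SMIM17, PPP1R9A and ZC2HC1B exceeded background on SB-OG alone. Their log2 differences, from at least 0.09 to at least 0.95, are lower bounds and do not place them within 2-fold. The neighbours were taken by position, and those given with intensities here were picked after their values were seen.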
